A study of Mus musculus with 2 samples.

Results

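The enzymes that turn glucose into pyruvate and lactate and burn pyruvate in the citrate cycle were compared between the colons of control mice and of mice that lack the prostaglandin E2 receptor EP4 in the intestinal epithelium. The members were 38 genes listed by name, out of 22909 genes named on the arrays: 16 of glycolysis from the hexokinases to the lactate dehydrogenases, 3 kinases of pyruvate dehydrogenase (PDH), 3 subunits of the PDH complex, 12 of the citrate cycle and its partner dehydrogenases, and 4 of gluconeogenesis. RNA came from whole colon of C57BL/6 mice, aged 8 weeks by the study's methods. The control genotype was Villin-Cre, and the other was Villin-Cre; EP4flox/flox (EP4 cKO). Both genotypes therefore carry Cre recombinase, made under the villin promoter of intestinal epithelial cells, and only EP4 cKO mice carry floxed EP4, so cells outside the epithelium keep the receptor. There was 1 Agilent array with 1 colour (Cy3) per genotype, and per the labels its RNA was a mix of 3 colon pools. Every value below describes these 2 arrays. No test, p-value or spread between mice can be given, and no difference has a replicate check.

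Glycolysis splits glucose into pyruvate in the cytosol, and the lactate dehydrogenases convert pyruvate to lactate and back. Inside the mitochondrion, the PDH complex converts imported pyruvate to acetyl-CoA, which the citrate cycle oxidizes, while the PDH kinases switch the complex off. Gluconeogenesis runs the path backwards through enzymes of its own. Colonocytes are known for burning butyrate, a product of gut bacteria, in their mitochondria. Many glycolytic genes are known targets of the hypoxia factor HIF-1, and Pck1 is a textbook gene that is switched on through cAMP, the second messenger that EP4 raises.

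Signals are scanner intensities, scaled on each array so that their mean without the top and bottom 2% of probes was 2500. A ratio is the log2 of EP4 cKO over Villin-Cre for the brightest probe of a gene, so 1 is 2-fold higher and -1 is 2-fold lower. The scanner's own error of such a ratio was 0.20 for the median member. It was nearly the same for all bright member probes and larger for dim ones (0.52 for Ldhb). For bright probes, 2 times this error is therefore a nearly fixed cut of 0.41. The SD measured over spots was smaller, with a median of 0.03 over 289 probes with at least 5 spots. Neither covers mice. Where the probe was well above background on only 1 array, the dim side was set at its own signal or at the floor, whichever was higher, and the ratio is a bound. The floor is the lowest signal well above background on that array (125 on Villin-Cre and 57.8 on EP4 cKO). Of 56593 probes, the Villin-Cre array held 45.4% well above background and the EP4 cKO array 51.6%. 14669 genes had a ratio, with a median of -0.10. 713 of them (4.86%) were more than 2-fold higher on the EP4 cKO array and 1154 (7.87%) more than 2-fold lower.

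The targeted gene did not mark the arrays. Ptger4, which encodes EP4, had a signal of 6227 on Villin-Cre and 5661 on EP4 cKO for its brighter probe, a ratio of -0.14, and a second probe went from 393 to 592, a ratio of 0.59. Whether these probes lie in the floxed part is not given in the sources used here, so the directions below rest on the labels. All 9 epithelial markers were well above background on both arrays. 5 of 7 fibroblast markers had a ratio and all 5 were more than 2-fold lower on EP4 cKO, with a summed signal over the 7 of 13059 on Villin-Cre and 317 on EP4 cKO, while Pdgfra and Dpt were not well above background on either. All 3 red blood cell markers were lower as well, with a summed signal of 115323 and 4273. In tissue RNA, fewer cells of a type and less RNA per cell cannot be told apart.

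Most glycolytic enzymes had ratios above 0, citrate cycle enzymes were spread around 0, and few members of either differed by more than 2-fold. 37 of the 38 members had a ratio. 1 was more than 2-fold higher (Hk2, against 4.86% of all genes), 3 were more than 2-fold lower (Ldhb, Pfkm and Pck1, against 7.87%), and 33 lay within 2-fold. 23 of the 37 ratios were above 0 (36.3% of all genes) and 14 below 0 (57.5%). 11 members were higher by more than 2 times their scanner error (12.4% of all genes) and 5 were lower (25%). The 11 became 6 with the mean of all probes (1725 of all 14679 genes) and 16 with 75th percentile scaling (2648 of 14669). With E1A control spots they became 33 (10939 of 14669). At 1.5-fold, 4 were higher (Hk2, Pdk1, Pgk1 and Pfkp, against 9.84%) and 4 lower (Ldhb, Pfkm, Pck1 and Pck2, against 18.6%). The median of the 37 was 0.11. The 16 glycolysis genes had a median of 0.34, with 13 above 0. The 15 PDH complex and citrate cycle genes had a median of -0.23, with 7 above 0 (36.3% of all genes) and 8 below (57.5%). None of them passed 2-fold, 2 were higher by more than 2 times their scanner error (12.4% of all genes) and 0 lower (25%). After normexp with quantile normalization, 2 were higher (1906 of 14664 genes) and 2 lower (2038). The median of these 15 genes shrank to -0.08 with 75th percentile scaling and to -0.10 with a trimmed mean over all spots. It was 0.80 with E1A control spots. The medians of both groups differed by 0.57.

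**Figure D1:**
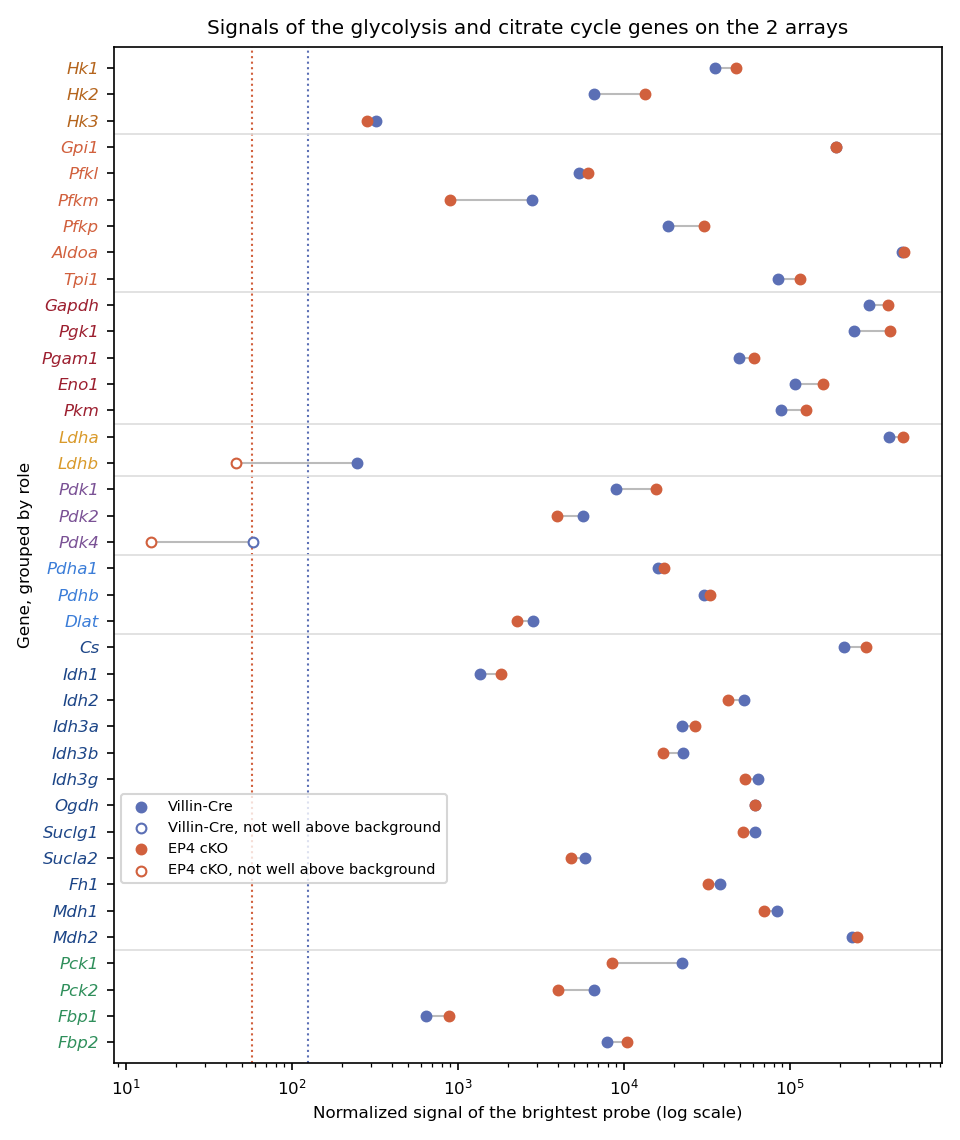
Normalized signal of the brightest probe of each of the 38 member genes (log axis) on the Villin-Cre array (blue) and the EP4 cKO array (orange), 1 array each; open points were not well above background, and dotted lines mark the floor of each array. Pairs of points lie close together for most genes, Hk2, Pgk1 and Pdk1 are higher on EP4 cKO, and Pfkm, Ldhb and Pck1 lie lower; signals of different genes are not on 1 scale of abundance, since each probe binds with its own strength.

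Hk2, Pgk1, Ldha and Pdk1 had ratios above 0, that of Ldha within 2 times its scanner error. The start regions of these 4 members are shown because the genes are known HIF-1 targets. Each is the 250 bases before an annotated transcription start in RefSeq (build GRCm38.p6), 5′ to 3′ on the strand of the gene. Capitals mark the core letters of the HIF-1 element, ACGTG or GCGTG on either strand, and TGACG, the first part of the cAMP response element, on either strand. The 2 patterns can overlap, as in CACGTCA in Hk2. For Ldha and Pdk1 the window of a second annotated start was left out; it held 1 match to the HIF-1 letters in Ldha and 0 in Pdk1.

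Hk2, chr6:82774455-82774704, minus strand: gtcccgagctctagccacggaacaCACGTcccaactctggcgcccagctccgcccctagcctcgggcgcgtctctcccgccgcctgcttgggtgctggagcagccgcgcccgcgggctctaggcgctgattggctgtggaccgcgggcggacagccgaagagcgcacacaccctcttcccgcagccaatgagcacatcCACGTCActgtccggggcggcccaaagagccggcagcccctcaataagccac
Pgk1, chrX:106186850-106187099, plus strand: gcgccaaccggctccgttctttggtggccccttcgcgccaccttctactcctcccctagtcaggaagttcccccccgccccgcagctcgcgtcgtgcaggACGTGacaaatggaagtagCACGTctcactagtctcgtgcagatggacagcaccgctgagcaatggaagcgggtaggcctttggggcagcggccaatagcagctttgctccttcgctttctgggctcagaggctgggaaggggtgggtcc
Ldha, chr7:46845554-46845803, plus strand: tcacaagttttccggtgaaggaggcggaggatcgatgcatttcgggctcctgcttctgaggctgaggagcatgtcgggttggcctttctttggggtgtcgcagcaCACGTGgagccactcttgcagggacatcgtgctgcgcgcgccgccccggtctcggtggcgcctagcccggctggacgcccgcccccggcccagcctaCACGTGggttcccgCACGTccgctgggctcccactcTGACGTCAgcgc
Pdk1, chr2:71872974-71873223, plus strand: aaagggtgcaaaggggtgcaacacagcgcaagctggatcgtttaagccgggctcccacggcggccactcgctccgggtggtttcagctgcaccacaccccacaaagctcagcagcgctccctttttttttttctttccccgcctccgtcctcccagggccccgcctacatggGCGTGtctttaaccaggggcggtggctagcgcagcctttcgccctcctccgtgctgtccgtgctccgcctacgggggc

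The letters of the HIF-1 element matched 2 times in Hk2, 2 in Pgk1, 5 in Ldha and 1 in Pdk1, where a palindrome such as CACGTG in Ldha counts on each strand. At least 1 window of 29 of the 37 members found in the promoter table held them. By windows, this was 40 of 55 (72.7%), against 38.6% of all 32851 windows of the same length in the mouse table. The HIF-1 letters also occurred in members with negative ratios, such as Pfkm, Ldhb, Suclg1 and Idh3g, and in all windows of Ogdh, at 0.02. Whether they go with the direction of the ratios was not tested. The TGACG letters were in 16 of the 55 windows (29.1%), against 17.8% of all. Both patterns were chosen with the ratios known, member windows of 1 gene can overlap, and a match of letters is not a bound site.

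Hexokinases trap glucose in the cell as glucose 6-phosphate. Hk2, the inducible form and 1 of the windows above, had a signal of 6609 on Villin-Cre and 13378 on EP4 cKO. This is 2.02-fold higher, a ratio of 1.02 with a scanner error of 0.20, so the value sits on the 2-fold line within that error. Hk1, the form found in most tissues, went from 35306 to 47068, a ratio of 0.41. Its second probe was dim at 134 and 70.0, not well above background on Villin-Cre, so its bound counted as 0.00, and the mean of both gave 0.21. Hk3, a hexokinase of myeloid cells, had low signals of 322 and 284, well above background on both arrays. Its ratio of -0.18 turned to 0.05 after normexp with quantile normalization and to 0.11 after loess.

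Among the 11 enzymes from Gpi1 to Pkm, 10 ratios lay above 0 (36.3% of all genes), with a median of 0.38. 5 were higher by more than 2 times their scanner error (12.4% of all genes) and 1, Pfkm, was lower (25%). The 5 became 3 with the mean of all probes, 7 with 75th percentile scaling and 10 with E1A control spots. The phosphofructokinases, which set the pace of the pathway, split by isoform. Pfkp, the platelet form, had signals of 18573 and 30498, a ratio of 0.72, and its second probe gave 0.68. Pfkl, the liver form, had 5407 and 6066, a ratio of 0.17. Pfkm, the muscle form, went the other way from 2818 to 903, 3.12-fold lower, a ratio of -1.64. Its only probe was well above background on both arrays. The muscle markers beside it did not move together: 4 of the 6 smooth muscle markers with a ratio lay above 0 (Mylk 0.86, Actg2 0.72), Cnn1 was at -2.73, and Myh11, Lmod1 and Synm stayed near background on both. So did the skeletal muscle markers Ckm and Myh1. Of the 7 skeletal muscle markers with a ratio, 4 lay above 0 (Acta1 1.97) and 2 below (Mb at most -1.76 as a bound). The part of muscle, fibroblasts and blood in the lower Pfkm was not tested.

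Gpi1, which converts glucose 6-phosphate to fructose 6-phosphate, had nearly equal signals of 190153 and 190412, and its 3 probes lay between 0.00 and 0.05. Aldoa, the main aldolase of most tissues, which splits the sugar, had 470072 and 488578, a ratio of 0.06. Tpi1, which interconverts the products of aldolase, went from 84621 to 114846, a ratio of 0.44, with 0.32 to 0.44 over 3 probes. All of these probes were well above background on both arrays.

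The lower steps, in which ATP is made, all had ratios above 0, with a median of 0.51 over 5 genes, and 3 of the 5 (Pgk1, Eno1 and Pkm) were higher by more than 2 times their scanner error (12.4% of all genes). This count was 5 with 75th percentile scaling and 2 with the mean of all probes. Pgk1, the first enzyme to make ATP, went from 242188 to 402360, 1.66-fold higher and a ratio of 0.73. Eno1, the main enolase, went from 106584 to 157834, a ratio of 0.57, while its second probe gave 0.22. Pkm, the pyruvate kinase of most tissues outside liver, went from 88052 to 125751, a ratio of 0.51, and 0.54 by its second probe. Gapdh had 298284 and 389302, a ratio of 0.38, with 0.29 to 0.50 over its 6 probes. This gene served as the reference in the study's qRT-PCR. Pgam1 had 49483 and 60536, a ratio of 0.29, and the SD over the 9 spots of that probe was 0.03. No gene of this group reached 2-fold.

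The lactate dehydrogenases differed in direction. Ldha, whose subunit favours lactate, went from 395103 to 482861, a ratio of 0.29, with 0.31 by its second probe. Ldhb, the heart-type subunit, was dim: 249 on Villin-Cre, and 46.2 on EP4 cKO where it was not well above background. This bound is at least 4.31-fold lower. After normexp with quantile normalization its ratio was -0.78, within 2-fold. The fibroblast and red blood cell markers given above moved the same way, and their part was not tested.

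**Figure D2:**
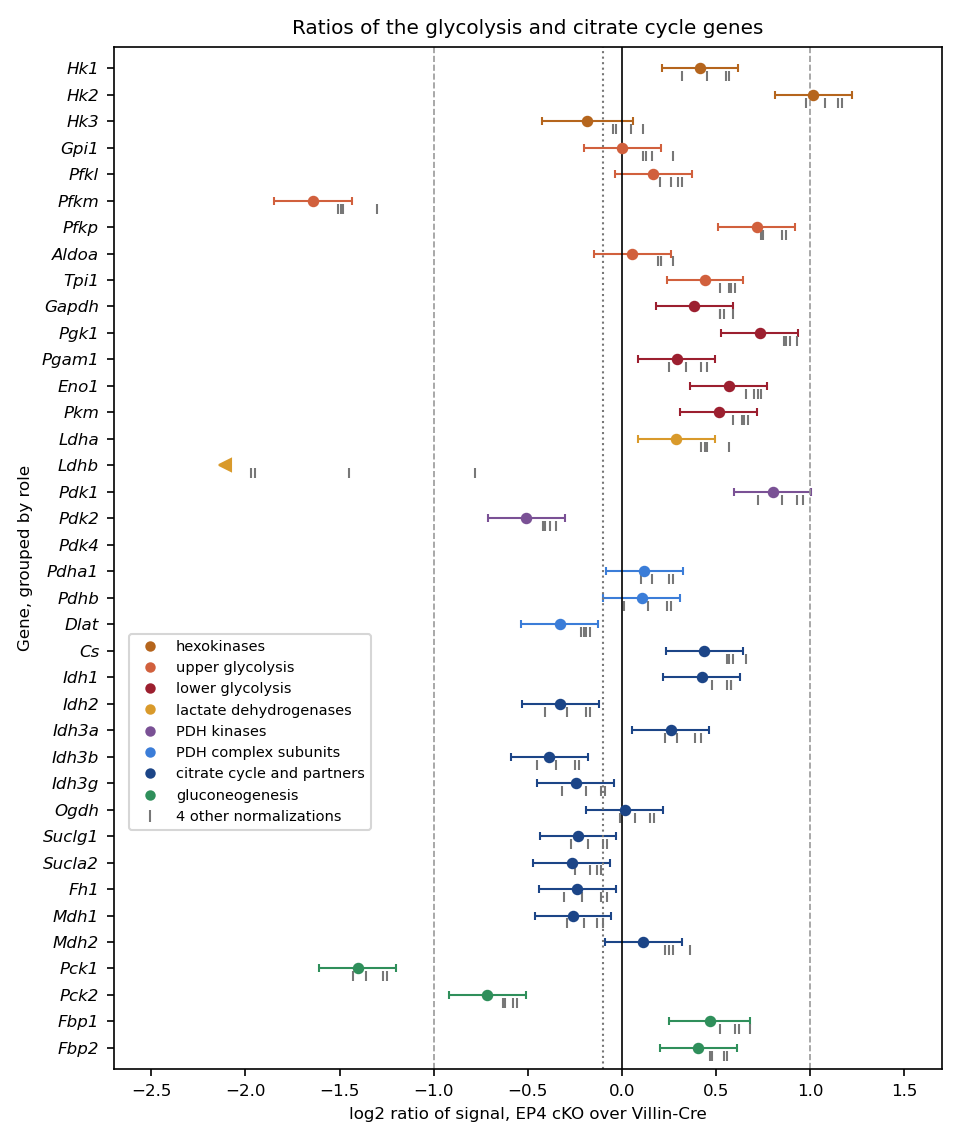
log2 ratio of signal, EP4 cKO over Villin-Cre, for each member with a value (points, coloured by role; bars are 1 scanner error, which does not cover mice); the triangle is a bound, small grey ticks are the ratios under 4 other normalizations, dashed lines mark 2-fold and the dotted line the median of all genes at -0.10. The 5 lower glycolysis genes all lie right of 0, the citrate cycle genes lie between -0.39 and 0.44, and only Pfkm, Ldhb and Pck1 lie beyond 2-fold on the left; Pdk4 has no value.

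The PDH kinases, which phosphorylate and switch off PDH, also split. Pdk1 went from 8951 to 15591, 1.74-fold higher and a ratio of 0.80. Its probes disagreed: a second gave 0.81 and a dimmer probe, at 507 and 518, gave 0.03. Pdk2 went from 5665 to 3985, a ratio of -0.51. Pdk4, the form known for its rise in fasting, had 58.7 and 14.3, not well above background on any array, and so has no ratio. Of the PDH subunits, Pdha1 went from 15983 to 17344 (0.12) and Pdhb from 30585 to 32909 (0.11), within the scanner error. Dlat, the transacetylase core, went from 2840 to 2259, a ratio of -0.33, but its other probe gave 0.04.

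In the citrate cycle, 5 of 12 ratios lay above 0 and 7 below (57.5% of all genes lay below). Cs, the citrate synthase that opens the cycle, went from 212437 to 287483, a ratio of 0.44, and its second probe gave 0.38. Cs and Idh1 were the only ones of the 12 genes to exceed 2 times their scanner error, both upwards (12.4% of all genes). With the mean of all probes the count was 0, and with 75th percentile scaling 3. After normexp with quantile normalization, 2 were higher and 2 lower by this mark (Idh3b at -0.45 and Idh2 at -0.41). The isocitrate dehydrogenases had mixed ratios. Idh3a, the catalytic subunit of the NAD-dependent enzyme of the cycle, had 22402 and 26800, a ratio of 0.26. The other subunits of the same enzyme had ratios below 0, each within 2 times its scanner error. Idh3b had 22638 and 17326 (-0.39), and Idh3g had 64045 and 54007 (-0.25, and -0.29 by its second probe). The NADP-dependent Idh2 of mitochondria had 52804 and 42104, a ratio of -0.33, and -0.31 by its second probe. Idh1, its cytosolic relative, had 1366 and 1831, a ratio of 0.42, and a dimmer probe gave -0.28.

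The later steps lay close together. Ogdh, a subunit of the oxoglutarate dehydrogenase complex, had 61242 and 61902, a ratio of 0.02, while its second probe gave -0.29 and normexp with quantile normalization gave -0.01. Suclg1 and Sucla2, subunits of succinyl-CoA ligase, had ratios of -0.23 (61564 and 52356) and -0.27 (5823 and 4841). Fh1, fumarase, had 37800 and 32055, a ratio of -0.24. The malate dehydrogenases were at -0.26 for cytosolic Mdh1 (83135 and 69421) and 0.11 for mitochondrial Mdh2 (235484 and 254671). Each of these later-step ratios lay within 2 times its scanner error. With E1A control spots as the scale, which raised the median of all genes by 0.97, every citrate cycle ratio lay above 0.

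In gluconeogenesis, both carboxykinases at its entry were lower on EP4 cKO by more than 2 times their scanner error (25% of all genes), and 1 of the 2 fructose bisphosphatases (Fbp1) was higher (12.4%). Pck1, the cytosolic phosphoenolpyruvate carboxykinase, went from 22523 to 8517, 2.64-fold lower and a ratio of -1.40. Its start region is shown because the gene is known for its cAMP response element. The capitals mark CGTCA, which reads TGACG on the other strand, and no HIF-1 letters occurred in the window. The TGACG letters also occurred in members with positive ratios, such as Hk2 and Ldha, and with negative ratios, such as Idh3b and Idh3g. Any part of cAMP in the lower Pck1 was not tested.

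Pck1, chr2:173152823-173153072, plus strand: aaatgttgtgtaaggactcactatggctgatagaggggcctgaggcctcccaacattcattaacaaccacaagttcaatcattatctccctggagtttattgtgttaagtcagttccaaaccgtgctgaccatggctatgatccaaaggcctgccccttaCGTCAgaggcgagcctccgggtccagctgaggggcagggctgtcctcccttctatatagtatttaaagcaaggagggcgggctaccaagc

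Pck2, the mitochondrial form, went from 6589 to 4015, a ratio of -0.71, and its dimmer probe gave -1.18. Of the bisphosphatases, Fbp1, the liver form, went from 642 to 886 (0.47), and Fbp2, the muscle form, from 7946 to 10522 (0.41). Scaled to the E1A spots, Pck1 was at -0.37 and Pfkm at -0.61, within 2-fold, and Pck2 and Pdk2 turned to 0.32 and 0.53.

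**Figure D3:**
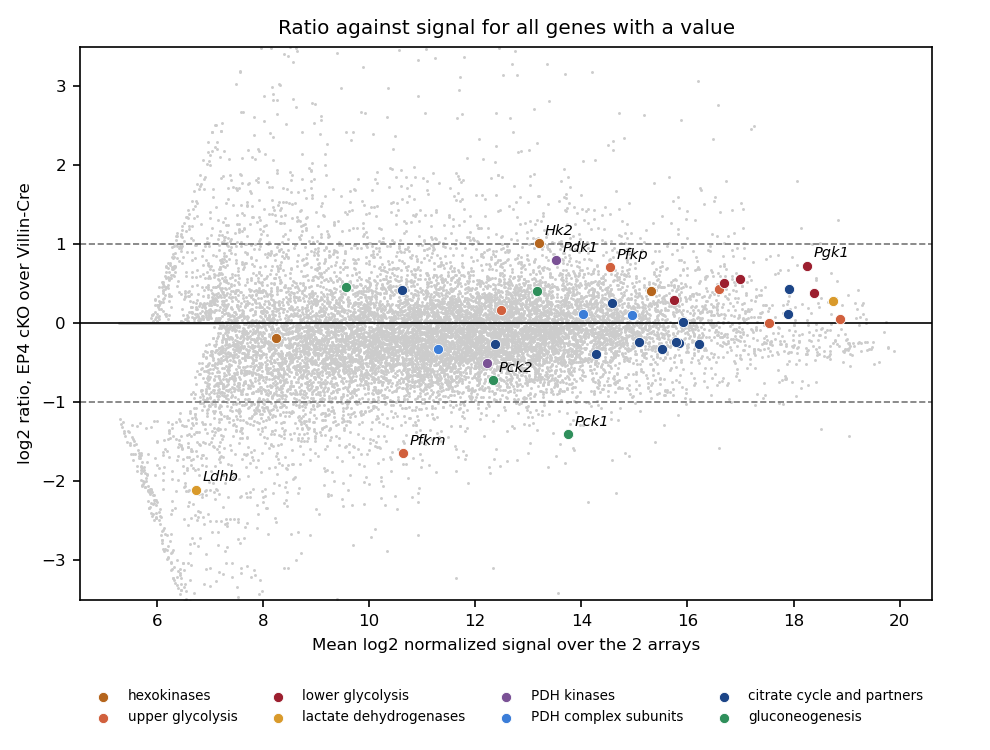
log2 ratio of EP4 cKO over Villin-Cre against the mean log2 normalized signal over the 2 arrays for all genes with a value (grey) and the members (coloured by role, 1 point per gene; dashed lines mark 2-fold). Most members lie among bright probes, where the grey cloud is narrow; 148 genes lie outside the plotted range of 3.5 on either side.

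Most members had bright probes, where ratios of all genes ran slightly higher. 27 of the 36 members well above background on both arrays were in the brightest 30% of genes, whose median ratio was -0.05. With the genes cut into 10 equal bins by signal, the median ran from -0.43 in the dimmest bin to -0.03 in the brightest. Beside these, the glycolysis median was 0.34 and the citrate cycle median -0.24, and the part of probe brightness was not tested. Epithelial markers had a median of 0.32 (7 of 9 above 0, Krt20 at 1.80), close to that of the glycolysis genes, and the part of a larger epithelial share in the glycolysis ratios was not tested.

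Genes around the pathway included some of the greater differences. Of 15 other isozymes, 13 had a ratio, 1 exceeded 2-fold upwards (4.86% of all genes) and 0 downwards, with a median of 0.00. Hkdc1, a further hexokinase, went from 130 to 1585, at least 12.2-fold higher. Ldhd, which acts on D-lactate, went from 1091 to 686, a ratio of -0.67. Among 5 enzymes that make or remove fructose 2,6-bisphosphate, the activator of phosphofructokinase, 1 was more than 2-fold higher. Pfkfb3 went from 263 to 937, a ratio of 1.83, while Pfkfb1 was at -0.50 and Pfkfb2 at 0.30. Of 19 other PDH and citrate cycle genes, 1 was more than 2-fold higher and 0 lower, with a median of 0.07. It was Me1, the cytosolic malic enzyme, which was not well above background on Villin-Cre (30.1) and had 2195 on EP4 cKO, at least 17.5-fold higher. Pcx, which refills the cycle with oxaloacetate, was at 0.82, and Pdp2, a PDH phosphatase, at -0.86.

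Of 11 carriers of glucose, lactate and pyruvate, 9 had a ratio, with a median of 0.15. The glucose carrier Slc2a1 (GLUT1) went from 14842 to 38722 (1.38) and the lactate exporter Slc16a3 (MCT4) from 1833 to 5778 (1.66), both more than 2-fold higher, and Slc2a4, the carrier of muscle and fat, went from 1275 to 281 (-2.18). In the list of 12 hypoxia response genes, 2 exceeded 2-fold upwards and 0 downwards, and 9 were higher by more than 2 times their scanner error (12.4% of all genes). Their median was 0.85, and 0.68 to 1.01 under the other alternatives than the E1A spots, which gave 1.89. Egln3, an oxygen-sensing hydroxylase, went from 3366 to 15211 (2.18), Bnip3, a factor of mitophagy, from 7204 to 26059 (1.85), and the vessel growth factor Vegfa from 2295 to 4464 (0.96). The 17 respiratory chain genes had a median of -0.02, with 0 past 2-fold in either direction.

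**Figure D4:**
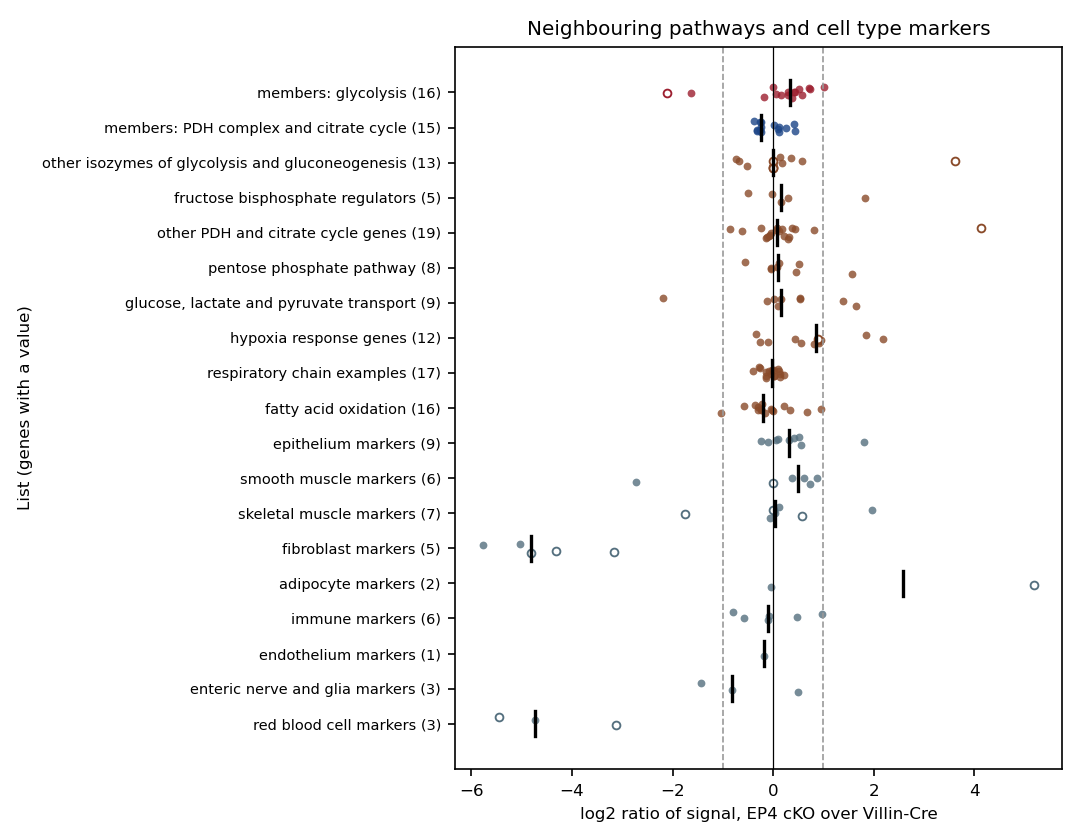
log2 ratio of EP4 cKO over Villin-Cre by gene list: each point is 1 gene with a value (open where the ratio is a bound), each bar the median of its list, and dashed lines mark 2-fold; the number of genes with a value follows each name, and there was 1 array per genotype. The hypoxia list has the highest median of the pathway lists at 0.85, the fibroblast and red blood cell markers lie at -4.81 and -4.74, and the respiratory chain genes lie in a narrow band around 0.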

How the data were processed

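RNA of whole colon was hybridized to 1-colour Agilent arrays, 1 per genotype, and each array was assigned to its genotype from its labels. The authors deposited scanner intensities per spot, from which the Feature Extraction software (11.5.1.1 in the submitters' notes, 12.0.3.1 in the file headers) had subtracted the background and removed spatial trends. No normalization between arrays is included. Both arrays held 62976 spots; none was saturated.

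From these intensities, control spots and outlier spots (147 on Villin-Cre and 126 on EP4 cKO) were left out, spots of a probe were averaged, and each array was scaled to a 2% trimmed mean of 2500, as in the study's methods (factors 3.45 and 2.68). The brightest probe by mean log2 signal stood for a gene. A bound that did not exceed 1 counted as a log2 ratio of 0. RefSeq accessions named 32989 of 56593 probes (58.3%) through a gene table of GRCm38.p6. Promoter windows came from RefSeq. Because the arrays' grid refers to another assembly, probe positions are not given.

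With 1 array per genotype, counts and medians are descriptions. The number of arrays limits the precision: the scanner error, and an SD of 0.03 over the spots of 289 probes with at least 5 spots, leave out mice. The members, the other lists and the tests were chosen with earlier results of these data known. The genes named are all members, Ptger4, and up to 3 genes of each list with the largest absolute ratios; all others were chosen after their values were seen. The values of some genes of these lists are not reported here. Alternatives were scaling to the 75th percentile, to all spots or to E1A control spots, normexp (offset 50) with quantile normalization, loess (span 0.3), 2 treatments of dim probes, the mean of probes, and thresholds of 1.5-fold and 3-fold. Normexp was run on median signals. The steps were tested on simulated data. The tools were limma 3.58.1 in R 4.3.3, and Python 3.11.15 with matplotlib 3.10.9, statsmodels 0.14.6, pandas 2.3.3 and numpy 2.4.6. The qRT-PCR and staining of the study were not analysed here.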

Additional observations from a re-analysis of the deposited data

How the results depend on the processing

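The difference of 0.57 between the glycolysis and the PDH complex and citrate cycle medians was 0.42 with the mean of all probes, 0.62 with loess and 0.66 after normexp with quantile normalization; scaling by a constant (75th percentile, all spots, E1A spots) cannot change it. The count of 1 member more than 2-fold higher became 0 after normexp with quantile normalization (Hk2 at 0.98), 23 with the E1A spots, 4 at a threshold of 1.5-fold and 0 at 3-fold. The 3 more than 2-fold lower became 1 with the E1A spots. The median of the members, 0.11, became 0.27 with the 75th percentile, 0.25 with all spots, 0.23 after normexp with quantile normalization, 0.21 with loess and 1.15 with the E1A spots, and its distance from the median of all genes, 0.21, became 0.48 where dim probes kept their own signal. The 11 members higher by more than 2 times their scanner error stood beside 1818 of 14669 genes. With the mean of all probes the count was 6 (1725 of 14679 genes). It was 13 after normexp with quantile normalization (1906 of 14664) and 14 with loess (2673 of 14669). It was 15 with all spots (2489 of 14669), 16 with the 75th percentile (2648) and 33 with the E1A spots (10939). The 5 lower became 2 with the E1A spots and 4 to 6 otherwise. The adipocyte markers, of which 2 had a ratio, had a median of 2.58, which turned to -0.04 over probes well above background on both arrays and to -0.08 with dim probes kept. Over all genes, the median moved by 0.10 with the 75th percentile, all spots and normexp with quantile normalization, by 0.13 with loess, by 0.97 with the E1A spots and by -0.27 with dim probes kept. The 713 genes higher and 1154 lower became 1134 and 719 with loess, 602 and 392 with normexp and quantile normalization, 5734 and 331 with the E1A spots, 1169 and 7213 with dim probes kept, 1444 and 2726 at 1.5-fold, and 324 and 533 at 3-fold. The share of higher genes among those called, 38.2%, became 50.8% with the 75th percentile, 48.9% with all spots, 60.6% with normexp and quantile normalization, 61.2% with loess, 94.5% with the E1A spots and 13.9% with dim probes kept. The cause of these shifts was not tested. No fold can be had for a probe dim on both arrays, and the 2 arrays give no spread between mice. No paired analysis was possible because each genotype had 1 array.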

Other observations

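Around the members, the pentose phosphate pathway, which branches off glycolysis, and fatty acid oxidation, which feeds acetyl-CoA to the citrate cycle, were described in the same way. Of 8 pentose phosphate genes, 1 was more than 2-fold higher on the EP4 cKO array (4.86% of all genes) and 0 lower, with a median log2 ratio of 0.10. H6pd, the form of the first enzyme in the endoplasmic reticulum, went from 1071 on Villin-Cre to 3192 on EP4 cKO, a ratio of 1.58. G6pdx, its cytosolic form, went from 14908 to 21193 (0.51), and Pgls, the lactonase that follows, from 107769 to 73122 (-0.56). Of 16 fatty acid oxidation genes, 12 had ratios below 0 (57.5% of all genes), with a median of -0.20. Acadl, the long-chain acyl-CoA dehydrogenase, went from 18067 to 35065 (0.96), as did Etfa, an electron carrier subunit, from 23604 to 37674 (0.67).

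Of the immune markers, 6 of 8 had a ratio, with a median of -0.10 (Ptprc 0.97, Csf1r -0.79, Laptm5 -0.58). Among the nerve and glia markers, 3 of 7 had a ratio, with a median of -0.82 (Uchl1 -1.43, Elavl4 -0.82, Snap25 0.50). For endothelium, 1 of 5 had a ratio (Pecam1 -0.18), and for skeletal muscle 7 of 9, with a median of 0.04 (Acta1 1.97, Mb at most -1.76 as a bound).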
